A study of Mus musculus with 13 samples.

Results

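Mitosis genes are the genes whose products take a cell from the start of chromosome condensation to its division into daughter cells. The set described here is a list of gene names of known function, drawn up with earlier results of these data known, and holds 44 of the 24411 genes in the bulk expression table. Grouped by role, it has 6 kinases and cyclins of mitotic entry, 4 members of the chromosomal passenger complex, 4 spindle checkpoint genes, 3 partners and targets of the anaphase promoting complex, 7 kinetochore and centromere genes, 9 kinesin motors, 6 spindle and centrosome genes, 3 cleavage furrow genes and 2 genes of mitotic chromatin. Of the 44, the single-cell table of library 1 lists 43, all but Kif18b, and that of library 2 lists 32.

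In a dividing cell, the kinase Cdk1 with cyclin B drives entry into mitosis, and the spindle checkpoint holds the cell until every kinetochore is attached to spindle microtubules. Cdc20 then activates the anaphase promoting complex, which marks securin (Pttg1) and cyclin B for destruction, so that the sister chromatids separate and the cell leaves mitosis. Most of these genes are transcribed mainly in the G2 and M phases and kept off in resting cells. In adult muscle, muscle stem cells are normally quiescent and divide after injury or in culture, and they leave the cell cycle when they differentiate into muscle fibres.

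The study measured gene expression in hindlimb muscle cells of wild type C57BL/6 mice aged 2 months. SMMC, which the labels call smooth-muscle and mesenchymal-like cells, were sorted as CD31-, CD45-, Sca1-, Vcam1- and ITGA7+ cells, and MuSC, labelled as quiescent muscle stem cells, as CD31-, CD45-, Sca1-, Vcam1+ and ITGA7+ cells. Bulk Smart-seq2 libraries were made from fresh SMMC (n = 3), from proliferating SMMC cultured for 3 days (n = 3), from differentiating SMMC that were cultured and then left to differentiate (n = 3), and from fresh MuSC (n = 2). The labels give no medium and no day for the differentiating cells. A further 2 droplet libraries (10x 3' chemistry) held mononuclear cells of uninjured muscle. No label states whether the libraries of a group come from different animals. The p-values therefore cover the variation among these libraries alone, and that may be technical.

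Marker genes of cell types moved with the culture stages. In fresh SMMC 6 of 6 smooth muscle markers were higher than in MuSC, with a summed level of 1180 to 1820 FPKM against 53.4 to 105 FPKM. FPKM is a read count divided by transcript length and by the mapped reads of the library. The 6 tenocyte (tendon cell) markers summed to 6.34 to 16.3 FPKM in proliferating SMMC, against 8510 to 17200 FPKM in fresh SMMC, and 5 of 6 were lower. The 7 muscle stem cell markers summed to 1470 to 1570 FPKM in proliferating SMMC, against 798 to 1100 FPKM in fresh SMMC, and 3 were higher and 2 lower. Most of the proliferating sum was Myod1, at 1100, 1090 and 1020 FPKM. Sdc4 was at 86.6, 96.9 and 101 FPKM in proliferating SMMC, against 515, 511 and 424 FPKM in fresh SMMC. The 6 skeletal muscle fibre markers summed to 12900 to 16300 FPKM in differentiating SMMC, against 557 to 1480 FPKM in proliferating SMMC. In bulk libraries, a change in which cells are present and a change in RNA per cell cannot be told apart, and the part of these shifts in the results on mitosis genes was not tested.

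The summed level of the 44 mitosis genes was 63.8, 65.5 and 69.2 FPKM in the fresh SMMC libraries, 3332, 3384 and 3314 FPKM in the proliferating, and 395, 625 and 755 FPKM in the differentiating ones. In the MuSC libraries it was 99.8 and 61.8 FPKM. Mitosis genes thus made up 0.577% to 0.605% of all FPKM in proliferating libraries, between 0.0718% and 0.136% in differentiating libraries, and between 0.0130% and 0.0205% in fresh libraries of both sorts. All 44 genes reached 1 FPKM in each proliferating library, compared with 11 to 15 of them in fresh SMMC libraries, 39 to 42 in differentiating and 14 to 24 in MuSC libraries. The median member was at 52.0 ± 10.5 FPKM in proliferating SMMC and 0.505 ± 0.203 FPKM in fresh SMMC (SD of the library medians, n = 3 each).

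**Figure D1:**
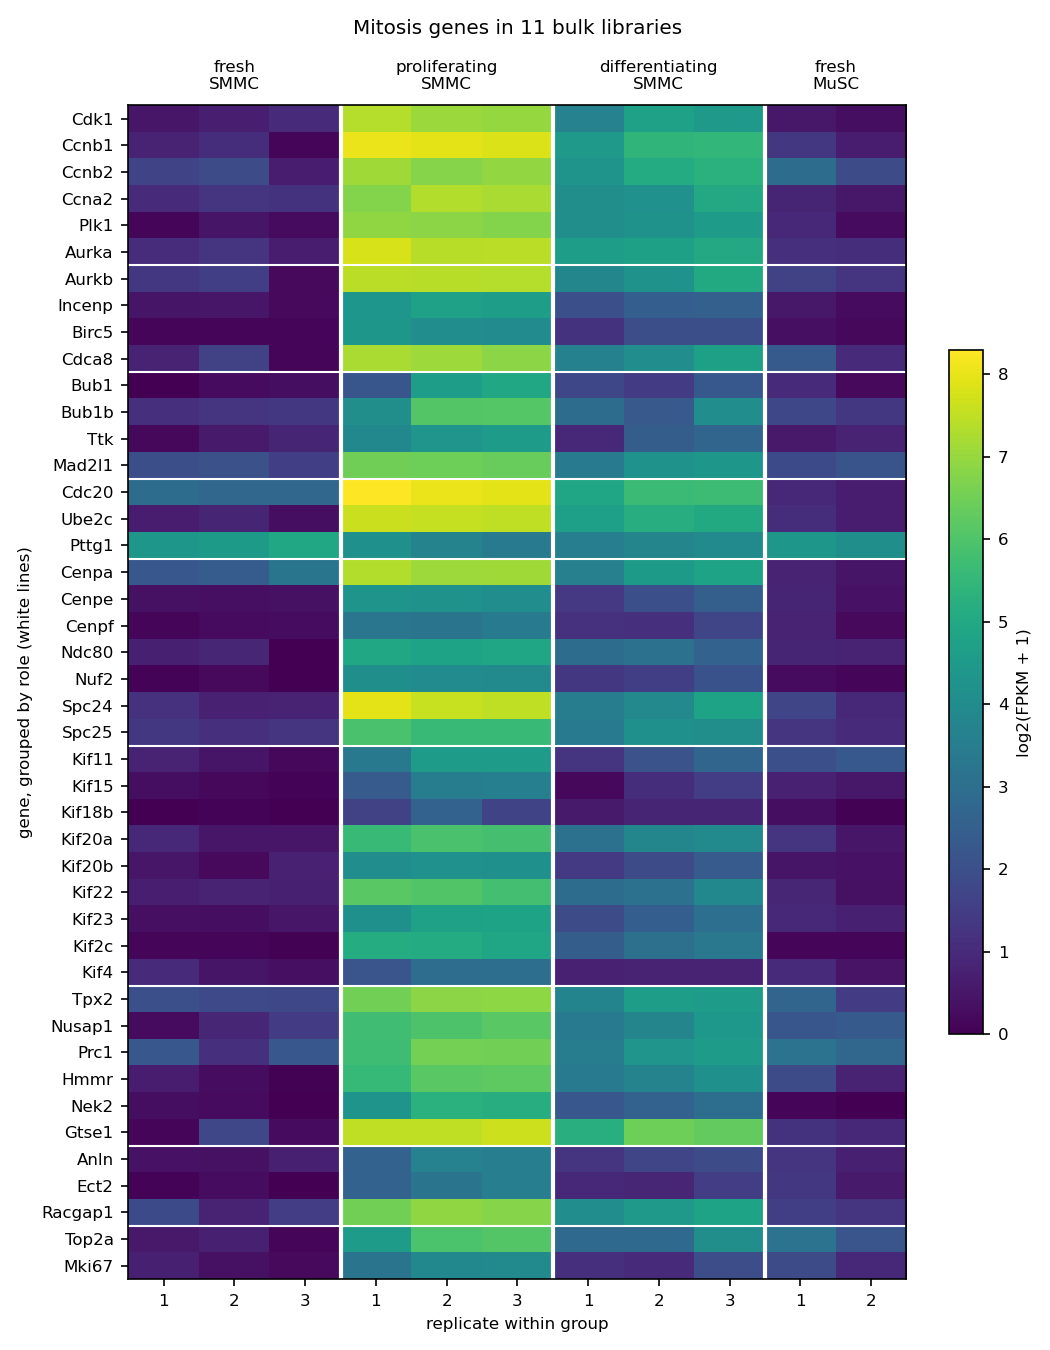
Level of each of the 44 mitosis genes, as log2(FPKM + 1) on the colour scale, in the 11 bulk libraries (columns) by group and replicate number. The 3 proliferating columns are the brightest for all genes but Bub1, where differentiating replicate 3 at 3.88 FPKM exceeds proliferating replicate 1, and Pttg1, whose fresh SMMC libraries hold 19.9, 21.9 and 30.2 FPKM.

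Proliferating SMMC were set against fresh SMMC to ask how mitosis genes changed once the cells were in culture. Of the 44 genes, 43 were higher and 1 was lower in proliferating SMMC by limma, a linear model fitted to log2(FPKM + 1) of all genes, at an adjusted p under 0.05. Among all 13233 genes tested, 33.1% were higher, 35.4% lower and 68.5% called either way. The proliferating and fresh libraries did not overlap for any of the 44 genes, while they did not overlap for 71.0% of all genes. The median log2 difference over the 44 genes was 4.57, beside -0.06 over all genes tested. All 44 passed the filter of 1 FPKM in 2 libraries, but Kif18b and Kif4 passed only through the proliferating libraries, so that their rise is fixed in part by the filter. Folds are those of FPKM + 1, so that changes of genes near 0 come out too small. Orders of genes by fold, here and below, are of FPKM + 1, and ratios of mean FPKM can order the genes otherwise.

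Among the entry kinases and cyclins, the cyclin B1 gene Ccnb1 was at 264, 246 and 231 FPKM in proliferating SMMC, against 0.787, 1.13 and 0.0937 FPKM in fresh SMMC. This 154-fold rise in FPKM + 1 was the largest of the 44 genes (log2 difference 7.27 ± 0.32 SE, limma adjusted p = 3.84e-09). Cdk1, the kinase that cyclin B activates, had 166, 130 and 124 FPKM in proliferating SMMC, against 0.416, 0.637 and 0.978 FPKM in fresh SMMC, an 84.1-fold difference. The smallest change of the role was that of Ccnb2, the second B-type cyclin, at 46.3-fold. Plk1 and Aurka, kinases of centrosome maturation and spindle assembly, rose 93.4-fold and 93.8-fold, and the cyclin A2 gene Ccna2 rose 61.3-fold. The 6 genes of mitotic entry had a median log2 difference of 6.47.

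The chromosomal passenger complex corrects faulty attachments of chromosomes to the spindle. Its kinase gene Aurkb had the largest fold of FPKM + 1 in this role, 83.3. Aurkb was at 171, 168 and 165 FPKM in proliferating SMMC, against 1.52, 1.88 and 0.149 FPKM in fresh SMMC. Cdca8 (borealin) rose 73.8-fold and the scaffold gene Incenp 18.2-fold, and the smallest fold of FPKM + 1 was 16.5 for Birc5 (survivin). The fresh mean of Birc5, 0.0842 FPKM against 17.0 FPKM in proliferating SMMC, is far below the added 1 FPKM. The 4 spindle checkpoint genes rose less, with a median log2 difference of 3.97. In FPKM + 1, Mad2l1 (MAD2), which binds Cdc20 until chromosomes are attached, was the highest of these at 23.9-fold. The kinase gene Ttk (MPS1) was the lowest at 13.1-fold. Mean levels in fresh SMMC were 2.66 FPKM for Mad2l1 and 0.473 FPKM for Ttk, so that the added 1 FPKM lowers the fold of Ttk more. Bub1, a checkpoint kinase gene, was uneven, with 3.62, 24.1 and 30.2 FPKM in proliferating SMMC and 0, 0.178 and 0.236 FPKM in fresh SMMC. Its replicate 1 was nearer to the fresh libraries than to its own group, yet the groups did not overlap (log2 difference 3.76 ± 0.57 SE, limma adjusted p = 7.50e-05).

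The 3 partners of the anaphase promoting complex did not move together. Ube2c, the enzyme that hands ubiquitin to the complex, was at 195, 189 and 181 FPKM in proliferating SMMC, against 0.552, 0.815 and 0.228 FPKM in fresh SMMC, a 125-fold rise with the smallest limma adjusted p of the set, 4.46e-10. Its activator gene Cdc20 was at 312, 263 and 244 FPKM in proliferating SMMC, against 6.63, 5.63 and 5.68 FPKM in fresh SMMC, a 39.1-fold rise from a level that all 3 fresh libraries held above 5 FPKM. Pttg1, which encodes securin, was at 17.0, 11.96 and 9.73 FPKM in proliferating SMMC, against 19.9, 21.9 and 30.2 FPKM in fresh SMMC. It was the 1 member that fell, 1.81-fold, with every fresh library above every proliferating one (log2 difference -0.86 ± 0.24 SE, limma adjusted p = 0.00613). Pttg1 alone accounted for 19.9 of the 63.8 FPKM that the members summed to in fresh replicate 1.

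Kinetochore genes, which join chromosomes to microtubules, differed widely in fold of FPKM + 1. Spc24, a subunit of the Ndc80 complex, was at 244, 191 and 178 FPKM in proliferating SMMC, against 1.28, 0.677 and 0.717 FPKM in fresh SMMC, a 108-fold rise. The other 3 genes of that 4-part complex rose 20.3-fold (Ndc80), 15.2-fold (Nuf2) and 21.9-fold (Spc25). Their FPKM, which are per length, were also unequal in proliferating SMMC. Means there were 204 for Spc24, 51.3 for Spc25, 28.4 for Ndc80 and 15.3 for Nuf2. Means in fresh SMMC were 0.891, 1.38, 0.491 and 0.0757 FPKM in the same order. The added 1 FPKM thus lowers the fold of Nuf2 most. Cenpf, a large protein of the outer kinetochore, had the smallest fold of FPKM + 1 in this role, 8.43, from a fresh mean of 0.160 FPKM. Cenpa, the histone variant that marks centromeres, was at 161, 135 and 137 FPKM in proliferating SMMC, against 3.80, 4.31 and 8.25 FPKM in fresh SMMC, a 23.4-fold rise.

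The 9 motors had a median log2 difference of 3.68. Kif22, a motor that moves along with chromosome arms, rose most, 38.3-fold, followed by Kif20a, a motor of the central spindle, at 35.1-fold. Kif18b, which shortens microtubules, rose least of all 43, 3.80-fold, with 2.05, 5.16 and 2.21 FPKM in proliferating SMMC and at most 0.0617 FPKM in any fresh SMMC library. Kif11, which pushes spindle poles apart, and Kif15, which can act beside it, rose 12.8-fold and 7.74-fold. Among spindle and centrosome genes, Gtse1, a G2 and mitosis gene that binds microtubules, rose 115-fold and Prc1, which bundles central spindle microtubules, 20.7-fold, the extremes of that role. Of the cleavage furrow genes, Racgap1 rose 40.6-fold and the furrow scaffold Anln 6.83-fold. Top2a, the topoisomerase that untangles sister chromatids, rose 33.6-fold and the proliferation marker Mki67 9.43-fold.

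**Figure D2:**
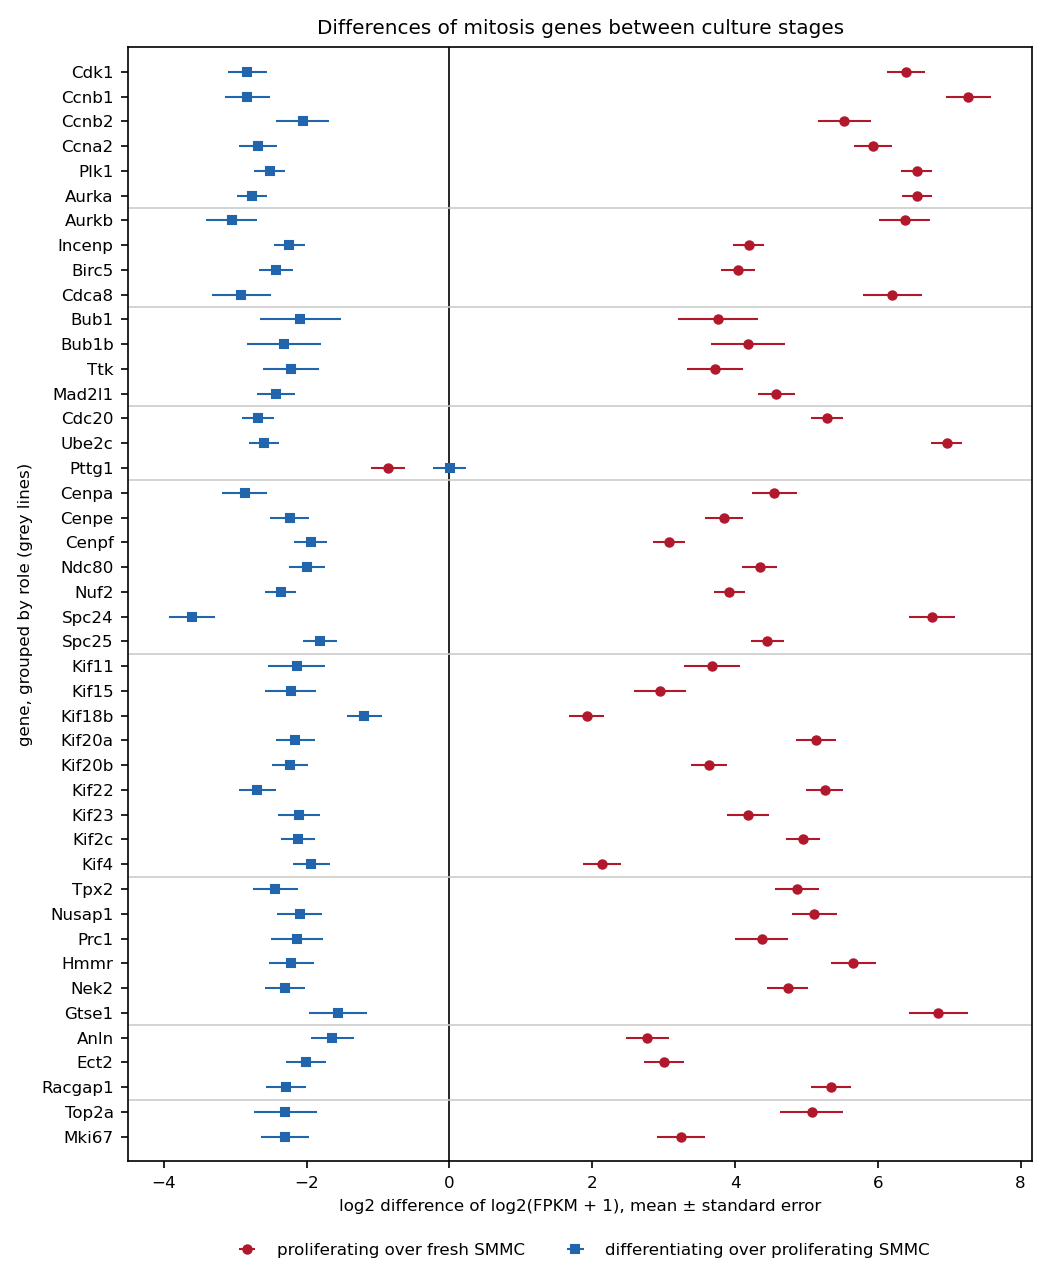
Fitted log2 difference of each mitosis gene with its standard error, for proliferating over fresh SMMC (circles) and differentiating over proliferating SMMC (squares), grouped by role. All circles lie above 0 except Pttg1 at -0.86, and all squares lie below 0 except Pttg1 at 0.00.

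Promoters are shown because nearly all members moved together. RefSeq promoter windows (build GRCm38.p6, from 250 bases before to 50 bases after the gene's start) were found for 38 of the 44 members. Each was searched on both strands for TTTGAA, the letters of the cell cycle genes homology region (CHR) that many G2 and M phase genes carry, and for CCAAT, the core of the site bound by the factor NF-Y. The letters of the CHR were in 28 of 38 members' windows (73.7%), compared with 20.2% of all 27025 windows and 13.9% of the 9820 windows of genes tested in bulk. CCAAT was also in 28 (73.7%), beside 41.1% of all windows and 42.5% of tested genes. Both stood in 23 (60.5%), beside 8.97% of all windows and 6.70% of tested genes. Among the 3356 tested genes with a window that were higher in proliferating SMMC, 15.5% held TTTGAA, 44.5% CCAAT and 7.93% both. Neither motif overlaps the other in its letters, and a match is a description, not a shown site. The windows of Birc5, Mad2l1, Nuf2, Nusap1 and Pttg1 held neither. The windows of the gene with the largest rise in FPKM + 1, of 3 that hold both motifs, and of Pttg1 follow. They run 5' to 3' on the strand of the gene, with every match on either strand in capitals.
Ccnb1, chr13:100786437-100786736, minus strand: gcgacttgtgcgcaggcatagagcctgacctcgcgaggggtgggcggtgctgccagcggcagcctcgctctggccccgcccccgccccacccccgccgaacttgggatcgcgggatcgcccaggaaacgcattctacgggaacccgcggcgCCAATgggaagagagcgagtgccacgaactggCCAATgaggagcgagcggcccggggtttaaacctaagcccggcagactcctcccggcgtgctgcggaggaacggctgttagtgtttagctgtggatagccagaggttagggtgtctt
Ccnb2, chr9:70421505-70421804, minus strand: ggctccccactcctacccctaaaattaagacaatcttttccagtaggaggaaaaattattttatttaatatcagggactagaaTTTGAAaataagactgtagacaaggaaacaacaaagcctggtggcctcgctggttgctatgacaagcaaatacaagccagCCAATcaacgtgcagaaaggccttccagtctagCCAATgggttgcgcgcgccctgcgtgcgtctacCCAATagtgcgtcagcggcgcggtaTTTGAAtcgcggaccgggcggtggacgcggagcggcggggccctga
Plk1, chr7:122159185-122159484, plus strand: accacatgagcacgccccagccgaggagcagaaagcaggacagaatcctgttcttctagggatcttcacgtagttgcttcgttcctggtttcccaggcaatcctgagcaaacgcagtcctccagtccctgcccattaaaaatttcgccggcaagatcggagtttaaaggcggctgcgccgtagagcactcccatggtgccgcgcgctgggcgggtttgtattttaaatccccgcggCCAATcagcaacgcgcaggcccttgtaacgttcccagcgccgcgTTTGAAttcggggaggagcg
Cdc20, chr4:118437294-118437593, minus strand: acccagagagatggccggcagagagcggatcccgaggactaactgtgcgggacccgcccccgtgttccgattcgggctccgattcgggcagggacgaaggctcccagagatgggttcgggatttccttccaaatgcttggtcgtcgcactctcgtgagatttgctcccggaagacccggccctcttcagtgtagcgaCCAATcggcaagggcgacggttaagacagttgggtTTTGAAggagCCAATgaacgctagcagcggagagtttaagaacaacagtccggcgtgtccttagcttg
Pttg1, chr11:43425932-43426231, minus strand: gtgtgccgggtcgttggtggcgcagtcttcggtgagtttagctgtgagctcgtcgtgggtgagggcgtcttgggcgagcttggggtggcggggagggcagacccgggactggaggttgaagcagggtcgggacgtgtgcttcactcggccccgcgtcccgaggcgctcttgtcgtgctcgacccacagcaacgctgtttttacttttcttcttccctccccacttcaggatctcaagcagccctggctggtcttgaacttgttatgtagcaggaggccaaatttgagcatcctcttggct
Ccnb1 had 2 CCAAT matches and no TTTGAA in this window, Ccnb2 3 and 2, Plk1 1 and 1, and Cdc20 2 and 1. The start that RefSeq gives Pttg1 lies 270 bases inside the gene as GENCODE M21 annotates it (chr11:43420250-43426251, minus strand), so its whole window lies within that annotation's gene. No match says only that these letters are not in this window.

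Other genes of division were counted from lists of known function, beside the 33.1% of all genes tested that were higher and the 35.4% that were lower in proliferating SMMC. Of 75 further mitosis genes tested, 72 were higher and 1 was lower in proliferating than in fresh SMMC. The kinase gene Melk had 35.7 ± 4.95 FPKM in proliferating and 0.0862 ± 0.114 FPKM in fresh SMMC, and the checkpoint ATPase gene Trip13 76.4 ± 6.83 FPKM in proliferating and 0.273 ± 0.237 FPKM in fresh SMMC (SD, n = 3 each). Ncapd3, a condensin II subunit, was the exception, at 2.28 ± 0.869 FPKM in proliferating and 4.51 ± 1.05 FPKM in fresh SMMC. All 41 DNA replication genes were higher, among them the ribonucleotide reductase gene Rrm2 at 788 ± 132 FPKM in proliferating and 3.09 ± 1.84 FPKM in fresh SMMC. Of 16 genes of the anaphase promoting complex, its activator Fzr1 and its partner enzyme Ube2s included, 10 were higher and none was lower.

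Of the 23 regulators of mitosis gene transcription tested, 14 were higher and 3, Rbl2, E2f5 and Lin52, lower. Mybl2 (B-Myb), part of the complex that turns on G2 and M genes, was at 33.3 ± 1.28 FPKM in proliferating and 0.339 ± 0.296 FPKM in fresh SMMC. Rbl2 (p130), part of the repressor complex of resting cells, was at 1.09 ± 0.343 FPKM in proliferating and 7.38 ± 2.89 FPKM in fresh SMMC (SD, n = 3 each, limma adjusted p = 6.67e-05). Of 12 G1 cyclin and CDK inhibitor genes, 7 were higher, including Ccnd3 and Cdk4, and 4, Ccnd2, Cdkn1b, Cdkn1c and Cdkn2d, were lower, the last a share near the 35.4% of all genes. The largest of those falls was that of the inhibitor gene Cdkn1c (p57), which had 4.05 ± 3.04 FPKM in proliferating and 192 ± 56.2 FPKM in fresh SMMC.

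Replicate 1 of proliferating SMMC stood apart, more often for members with long transcripts. For the 14 members whose longest transcript has at least 4000 bases, its level was a median of 68.9% of the mean of replicates 2 and 3, while for the 30 shorter ones it was 106%. Top2a was at 23.0 FPKM in replicate 1 beside 61.0 and 66.7 FPKM, and Kif11 at 9.20 FPKM beside 23.1 and 22.7 FPKM. Replicate 1 was also the lowest for 12 of the 30 shorter members, and the smallest share of all, 13.3%, was that of Bub1, with a longest transcript of 3421 bases. Bub1b, at 3668 bases, was at 16.1 FPKM in replicate 1 beside 66.2 and 67.4 FPKM. Across the 44 members, Spearman's rho between transcript length and the log2 ratio of replicate 1 to the other 2 was -0.477, and across 5075 genes with a mean of 10 FPKM or more it was -0.493. Genes are not independent replicates, and the points share a library. Without this library the counts of members called were the same in the proliferating over fresh and the differentiating over proliferating comparisons, 43 higher and 43 lower. Within proliferating SMMC, FPKM and transcript length had a rho of -0.514 over the 44 members.

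Differentiating SMMC were set against proliferating SMMC to ask how far mitosis genes fell when the cells were left to differentiate. In differentiating SMMC 43 of the 44 genes were lower by limma at an adjusted p under 0.05, and none was higher, where 19.6% of all genes tested were lower and 20.9% higher. The median log2 difference was -2.24, beside 0.00 over all genes. The groups did not overlap for 42 of the 44, the exceptions being Bub1 and Pttg1, where 51.0% of all genes did not overlap. The proliferating libraries enter both this and the preceding comparison. Kif18b and Kif4 passed the filter only through the proliferating libraries, so that their fall is fixed in part by the filter. Among the other 42 members, 41 were lower.

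Spc24 had the largest fall, with 10.4, 13.8 and 26.9 FPKM in differentiating SMMC, against 244, 191 and 178 FPKM in proliferating SMMC (12.1-fold, log2 difference -3.60 ± 0.32 SE, limma adjusted p = 5.07e-06). Of the entry genes, Ccnb1 was at 21.2, 41.9 and 43.5 FPKM in differentiating SMMC, against 264, 246 and 231 FPKM in proliferating SMMC, a 7.11-fold fall. Ccnb2 fell least in that role, 4.16-fold. Every differentiating value of these 3 genes was below every proliferating one.

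In the chromosomal passenger complex Aurkb fell most, 8.28-fold, and Incenp least, 4.73-fold. In the checkpoint, Mad2l1 fell 5.39-fold and Bub1 4.25-fold. Bub1 was at 2.501, 1.76 and 3.88 FPKM in differentiating SMMC, against 3.62, 24.1 and 30.2 FPKM in proliferating SMMC, so that differentiating replicate 3 lay above proliferating replicate 1 (limma adjusted p = 0.0107). Cdc20 and Ube2c fell 6.40-fold and 6.06-fold. Pttg1 was not called, with 10.8, 12.6 and 14.7 FPKM in differentiating SMMC, against 17.0, 11.96 and 9.73 FPKM in proliferating SMMC. Its log2 difference was 0.00, with a 95% interval from -0.56 to 0.56 (limma adjusted p = 1).

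Among kinetochore genes the smallest fall was that of Spc25, 3.51-fold. In folds of FPKM + 1, motors ran from Kif22, 6.46-fold, to Kif18b, 2.29-fold, the smallest fall of the 43. On the same scale, spindle and centrosome genes ran from Tpx2, an activator of Aurora A, at 5.42-fold to Gtse1 at 2.95-fold. By mean FPKM, Kif18b kept 23.0% of its proliferating level and Gtse1 35.9%, so that Gtse1 fell less by that measure. Gtse1 was at 35.6, 86.9 and 78.1 FPKM in differentiating SMMC, against 179, 179 and 200 FPKM in proliferating SMMC, and was the highest of the 44 genes in differentiating SMMC. Its call was lost at a pseudocount of 0.1 (limma adjusted p = 0.118). Racgap1 fell 4.91-fold and Anln 3.12-fold, the extremes of the cleavage furrow genes in FPKM + 1. Top2a and Mki67 each fell 4.91-fold.

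The level left in differentiating SMMC was a median of 17.7% of the proliferating mean over the 44 genes, from 8.34% for Spc24 to 98.4% for Pttg1. The 3 differentiating libraries differed from each other in the same sense for most genes. Replicate 1 was the lowest for 38 of the 44 and replicate 3 the highest for 36. The median level left was 12.1% in replicate 1, 17.8% in replicate 2 and 23.2% in replicate 3. Summed DNA replication genes ordered these libraries alike, at 383, 576 and 678 FPKM. No label gives a property by which these libraries differ.

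**Figure D3:**
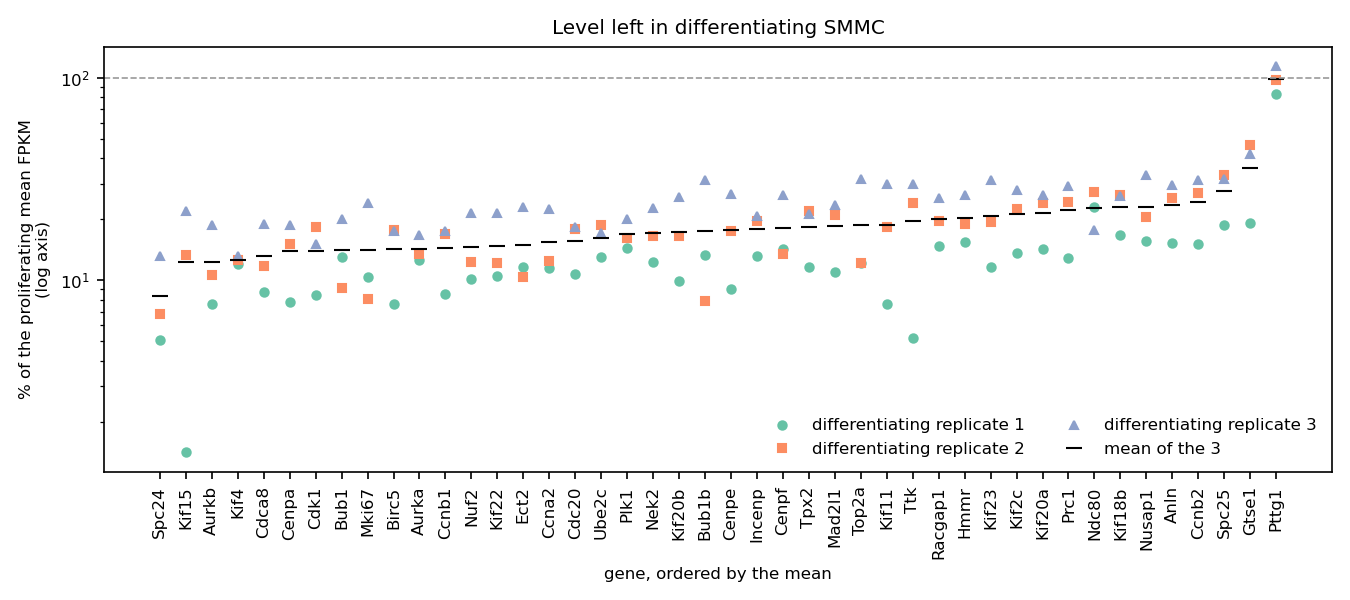
FPKM of each mitosis gene in each differentiating library as a percentage of its mean in proliferating SMMC, on a log axis, ordered by the mean of the 3 libraries (dash). Replicate 1 lies lowest for 38 of 44 genes, and Pttg1 at 98.4% stands at the right end.

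In the lists, beside 19.6% of all genes tested lower and 20.9% higher in differentiating SMMC, 69 of the 75 further mitosis genes were lower in differentiating SMMC and none was higher, and 41 of 41 DNA replication genes were lower. Mybl2 was at 1.93 ± 0.158 FPKM in differentiating and 33.3 ± 1.28 FPKM in proliferating SMMC, an 11.7-fold fall. The transcription factor gene Foxm1 was at 1.42 ± 1.02 FPKM in differentiating and 6.91 ± 1.86 FPKM in proliferating SMMC (SD, n = 3 each), and 10 of 23 regulators were lower and 3, Lin37, E2f6 and Rb1, higher. Of the 16 genes of the anaphase promoting complex, Fzr1 and Ube2s included, 8 were lower. Of the G1 cyclins and CDK inhibitors, 6 of 12 were higher and 3, Cdk4, Ccnd1 and Cdk6, lower, the last a share near that of all genes. The inhibitor gene Cdkn1a (p21), a marker of cell cycle exit in muscle cells, was at 1356 ± 63.3 FPKM in differentiating and 253 ± 67.0 FPKM in proliferating SMMC (SD, n = 3 each), a 5.48-fold rise (limma adjusted p = 3.64e-06).

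Differentiating SMMC still held more mitosis gene RNA than fresh SMMC. Of the 44 genes 41 were higher and 1 lower in differentiating SMMC, where 34.7% of all genes tested were higher, 33.3% lower and 68.0% called either way. The median log2 difference was 2.39, and the groups did not overlap for 42 of the 44, where 71.4% of all genes did not. Both groups enter the comparisons above. In FPKM + 1, Gtse1 differed most, 38.9-fold, followed by Ccnb1 at 21.7-fold and Ube2c at 20.7-fold. Pttg1 was again the 1 lower gene, 1.81-fold. The 2 genes not called were motors. Kif4, a chromosome-bound motor, was at 0.701, 0.733 and 0.768 FPKM in differentiating SMMC, against 0.969, 0.372 and 0.258 FPKM in fresh SMMC (limma adjusted p = 0.505). Kif15 was at 0.119, 1.12 and 1.86 FPKM in differentiating SMMC, against 0.236, 0.138 and 0.0611 FPKM in fresh SMMC (limma adjusted p = 0.0903), and it was called without differentiating replicate 1 (limma adjusted p = 0.0133). The call of Mki67 was lost with no filter, under median-ratio scaling, and without fresh SMMC replicate 2 or 3 or differentiating replicate 3, at limma adjusted p = 0.0519 to 0.113. That of Bub1 was lost with no filter and without fresh SMMC replicate 1 or differentiating replicate 3, at limma adjusted p = 0.0608 to 0.0664.

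Fresh SMMC were set against fresh MuSC to compare the uncultured sorts. Most mitosis genes were low in both. By limma 2 of the 44 genes were higher and 7 lower in fresh SMMC, and 35 were not called, where 41.7% of all genes tested were higher, 18.0% lower and 59.7% called either way. With only these 2 groups compared, 20 of the 44 passed the filter, and 2 were higher and 4 lower. The lack of a call for a gene near 0 in both sorts does not show equal levels. The median log2 difference over the 44 was -0.27, beside 0.45 over all genes. Quantile normalization, which moved the median of all genes to -0.03, gave 2 higher and 20 lower, so that the count of lower genes depends on the scaling. Rn45s, a ribosomal RNA precursor gene, was at 34203 to 51536 FPKM in fresh SMMC, against 113 to 123 FPKM in MuSC. With Rn45s left out and libraries set to one total, 2 were higher and 6 lower, at a median of -0.25.

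The 2 higher genes were Cdc20 and Cenpa. Cdc20 was at 6.63, 5.63 and 5.68 FPKM in fresh SMMC, against 0.926 and 0.596 FPKM in MuSC, a 3.97-fold difference (log2 difference 1.99 ± 0.25 SE, limma adjusted p = 2.19e-05). Cenpa was at 3.80, 4.31 and 8.25 FPKM in fresh SMMC, against 0.738 and 0.400 FPKM in MuSC, a 3.96-fold difference (limma adjusted p = 0.00039). The libraries of the sorts did not overlap for either gene, and both genes were called in all 20 alternative fits. Exons of Cdc20 and of Elovl1 on the opposite strand share 53 bases.

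The 7 lower genes were Top2a, Kif11, Nusap1, Prc1, Hmmr, Mki67 and Ect2. As a share of the 44 this is near the 18.0% of all genes tested that were lower. Top2a was at 0.476, 0.672 and 0.0751 FPKM in fresh SMMC, against 7.83 and 3.54 FPKM in MuSC, a 4.58-fold difference (log2 difference -2.19 ± 0.50 SE, limma adjusted p = 0.00223). Kif11 was at 0.792, 0.375 and 0.129 FPKM in fresh SMMC, against 3.10 and 3.91 FPKM in MuSC, a 3.19-fold difference. Nusap1, a spindle protein gene, was at 0.183, 0.842 and 1.70 FPKM in fresh SMMC, against 3.64 and 4.09 FPKM in MuSC, a 2.69-fold difference. The sorts did not overlap for these 7 and for 15 of the 44 genes in all, where 73.3% of all genes did not. MuSC replicate 1 was above replicate 2 for 39 of the 44 genes, and without it Top2a, Kif11 and Nusap1 were the 3 left. Without MuSC replicate 2 the calls of Kif11 (limma adjusted p = 0.0513) and Prc1 (0.0714) were lost, and Ccnb2 and Cdca8 were called lower. Without fresh SMMC replicate 3 the count was 4, with Hmmr, Ect2 and Mki67 lost. Without fresh SMMC replicate 2 it was 6, with Prc1, Hmmr and Mki67 lost and Ccnb2 and Cdca8 called lower. Without fresh SMMC replicate 1 it was 6, with Ect2 lost. With Rn45s left out, Prc1 was lost (limma adjusted p = 0.0545). With no filter on low values Prc1, Ect2 and Mki67 were lost, at limma adjusted p = 0.0768 to 0.0957.

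**Figure D4:**
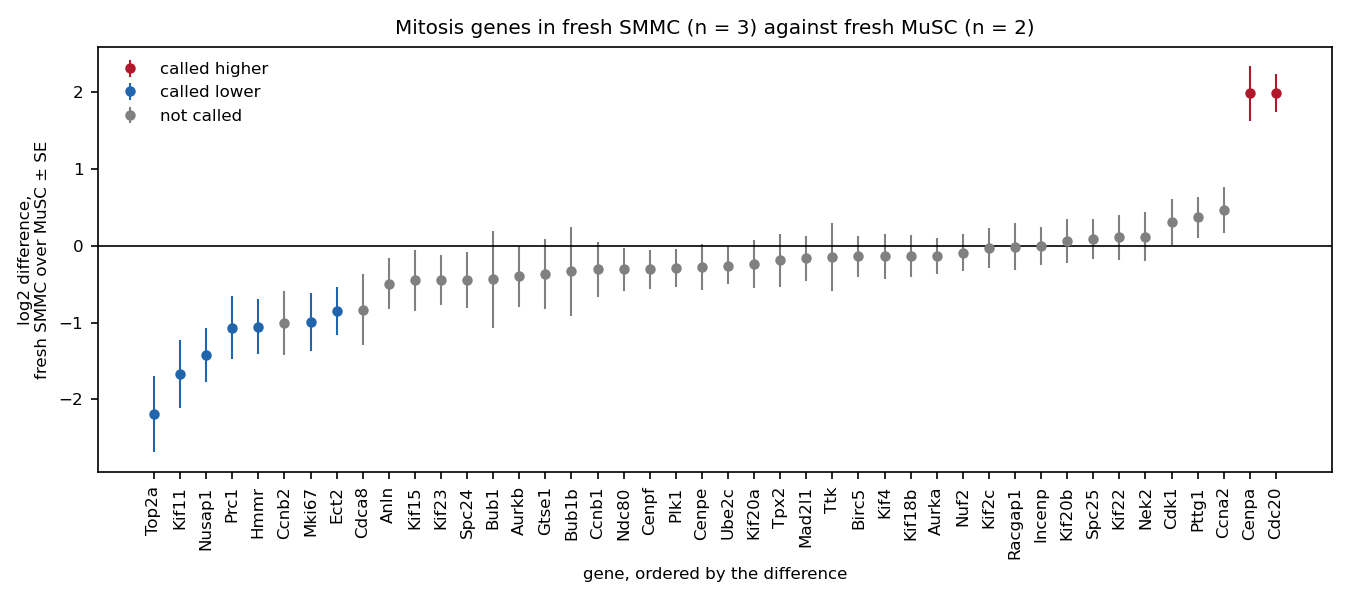
Fitted log2 difference of each mitosis gene in fresh SMMC over fresh MuSC with its standard error, ordered by size. Cdc20 and Cenpa stand apart at 1.99, and Top2a is lowest at -2.19.

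Against MuSC, proliferating SMMC had 43 of the 44 genes higher, and none lower, where 42.7% of all genes tested were higher, 25.7% lower and 68.3% called either way. Kif18b and Kif4 passed the filter only through the proliferating libraries, which fixes their direction in part. Among the other 42 members, 41 were higher. In FPKM + 1, Cdc20 differed most, 155-fold, with means of 273 ± 34.8 FPKM in proliferating SMMC (SD, n = 3) and 0.761 ± 0.234 FPKM in MuSC (SD, n = 2). Kif18b differed least on that scale, 3.47-fold. Pttg1 was not called (log2 difference -0.49 ± 0.26 SE, limma adjusted p = 0.119). It was called lower under quantile normalization (limma adjusted p = 0.00465), median-ratio scaling (0.000876) and with Rn45s left out (0.0407), and without proliferating replicate 1 (0.0290). No proliferating MuSC were measured.

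In the single-cell libraries of uninjured muscle few cells held several mitosis genes. Library 1 had 6144 cells with a median of 2516 UMIs (unique molecules counted), and library 2 had 6297 cells with a median of 2027. The 2 libraries share 53 cell barcodes. At least 1 UMI of a member was present in 38.4% of cells of library 1 (exact 95% binomial interval 37.2% to 39.6%) and 33.4% in library 2 (32.3% to 34.6%). Among cells named muscle fibre-like by their markers, it was 6 of 12 cells in library 1 and 7 of 13 in library 2. Their medians were 2589.5 and 2804 UMIs. Without Pttg1 it was 3 of 12 and 3 of 13 cells. Muscle fibres have left the cell cycle, but whether these cells had was not measured. A UMI of any member was thus not taken to mark a dividing cell here. These few cells do not judge single members, and the part of free RNA was not tested. With each cell thinned to 1000 UMIs, a UMI of a member was present in 17.8% and 17.5% of all cells so thinned. Intervals cover counting error only.

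Most of these UMIs came from 3 genes. Pttg1 had a UMI in 17.8% of cells of library 1 and 15.7% of library 2, Cenpa in 11.5% and 10.5%, and Spc24 in 3.48% and 4.16%. Together they made up 55.9% of members' UMIs in library 1 and 74.3% in library 2. No other listed member reached more than 1.46% of cells in library 1 or 1.03% in library 2, and the medians of the others were 0.415% and 0.286%. Without Pttg1 the share of cells with a UMI of any member was 25.2% in library 1 and 21.3% in library 2.

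Cells with at least 5 members numbered 25 in library 1 (0.407%, exact 95% binomial interval 0.263% to 0.600%) and 8 in library 2 (0.127%, 0.0549% to 0.250%). The highest number was 35 members, in 3 cells of library 1, and 25 members, in 1 cell of library 2, while only 5 cells in each library held exactly 4 members. Over the 32 members listed in both tables, the share in library 1 was 0.374%. None of the 25 was called a doublet, and doublets could not be judged in library 2, where the caller did not work. The 25 cells had a median of 5830 UMIs and the 8 cells 6845 UMIs, against 2507 and 2025 UMIs in the other cells of libraries 1 and 2, and the part of doublets in these cells was not tested. The cells were named by clustering that left these genes out. Of the 25, 17 lay in an unnamed cluster of 41 cells with Vpreb3 and Myl4 among its leading genes by fold, 6 among 257 macrophage or monocyte-like cells and 2 among 386 muscle stem cell-like cells. Of the 8 in library 2, 4 were T cell-like, 3 neutrophil-like and 1 dendritic cell-like, and none was detected among 579 muscle stem cell-like cells at a median of 2531 UMIs. The 0 of 579 allows up to 0.635% (exact 95% binomial limit) of cells with 5 members detected at this depth, which does not limit the share of dividing cells.

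No cell with 5 members was found among endothelial-like, fibro-adipogenic progenitor-like, tenocyte-like or pericyte-like cells of either library. These classes numbered 1239, 510, 313 and 213 cells in library 1 and 1360, 661, 506 and 190 in library 2. Nor was one found among B cell-like cells (1754 and 1136) or Schwann-like cells (29 and 75) of libraries 1 and 2. The 776 T cell-like cells of library 1 and 121 smooth muscle-like cells of library 2 held none either. Among the first 4 classes, the exact binomial limit reached 1.92%, for pericyte-like cells of library 2 at a median of 1494 UMIs. Such limits hold for detection at this depth and do not limit the share of dividing cells. DNA replication genes, which the rule did not use, went with the members. At 1000 UMIs per cell, a replication gene UMI was present in 18 of 24 cells with at least 5 members in library 1 and 8 of 8 in library 2. In cells with 1 to 4 members the shares were 36.2% and 37.4%, and in cells with none 35.7% and 38.4%. Cells with 1 to 4 members thus resembled those with none on this measure, and median UMIs were 5830, 2720 and 2374 in the 3 classes of library 1.

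**Figure D5:**
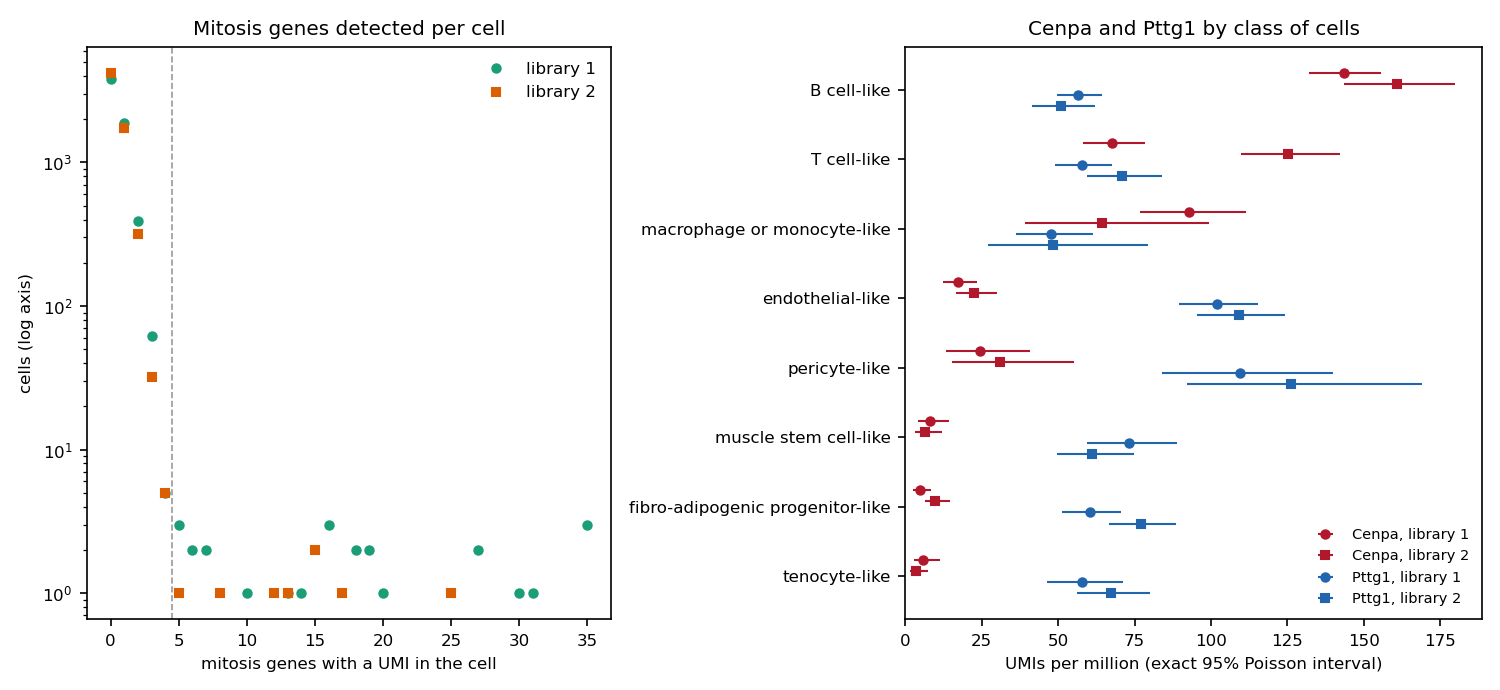
Left, number of cells (log axis) by number of mitosis genes with a UMI, in each single-cell library, with a dashed line below 5 genes. Right, Cenpa and Pttg1 UMIs per 1000000 with exact 95% Poisson intervals by class of cells, where Cenpa runs from 143 in B cell-like to 4.94 in fibro-adipogenic progenitor-like cells of library 1 and Pttg1 from 47.7 to 109.

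The genes that gave most UMIs differed in where they were found. Pttg1 had between 47.7 and 109 UMIs per 1000000 in the 8 plotted classes of library 1 and between 48.2 and 126 in those of library 2. In muscle stem cell-like cells it was at 73.0 (exact 95% Poisson interval 59.4 to 88.8) in library 1 and 61.2 in library 2. Cenpa was uneven, with 143 UMIs per 1000000 in B cell-like cells of library 1 and 161 of library 2, and 67.7 and 125 in T cell-like cells. In muscle stem cell-like cells it was at 8.03 and 6.45, in fibro-adipogenic progenitor-like cells at 4.94 and 9.88, and in pericyte-like cells at 24.3 and 30.9 UMIs per 1000000. Cenpa had a UMI in 24.5% of B cell-like cells of library 1 at a median of 2185 UMIs, and in 2.07% of muscle stem cell-like cells at 3440 UMIs. These rates pool the cells of a library, their intervals cover counting error only, and the part of free RNA in them was not tested. Of library 2, an unnamed cluster of 80 cells led by Cxcr6, Trdc and Il17f had the highest Cenpa, 672 UMIs per 1000000, with 0 of its cells at 5 members. Spc24 was at 29.5 and 42.1 in pericyte-like cells and at 12.4 and 19.98 in muscle stem cell-like cells. With 1 library each, these values carry no test between libraries.

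Beside the higher Cenpa of fresh SMMC in bulk, blood cell markers were as follows. The 4 B cell markers in the table summed to 0.257 to 0.629 FPKM in fresh SMMC, against 1.12 to 2.00 FPKM in MuSC. The 7 T cell markers summed to 0.281 to 1.71 FPKM in fresh SMMC, against 0.378 to 0.554 FPKM in MuSC. Of these 7, Cd3e, Cd3g and Cd8b1 were listed at 0 in fresh SMMC. Cd3d was at 0, 0.184 and 1.3 FPKM in fresh SMMC and at 0 in MuSC. The 8 macrophage or monocyte markers summed to 109 to 522 FPKM in fresh SMMC, against 24.1 to 33.5 FPKM in MuSC, with 2 of 4 tested higher and 1 lower. Most of that sum was Lyz2, while C1qa and Adgre1 were at or below 1.90 FPKM in fresh SMMC. Csf1r was at 1.85, 1.72 and 2.25 FPKM in fresh SMMC, against 0.956 and 0.803 FPKM in MuSC. Cd68 was at 4.65, 6.27 and 4.79 FPKM in fresh SMMC, against 31.8 and 22.9 FPKM in MuSC. The 7 dendritic cell markers summed to 359 to 474 FPKM in fresh SMMC, against 33.3 to 42.4 FPKM in MuSC, with 3 of 3 tested higher. Cst3 made up most of that sum, and Flt3 and Ccr7 were listed at 0 in fresh SMMC. H2-Aa was at 1.39, 3.5 and 2.18 FPKM in fresh SMMC, against 0.556 and 0.693 FPKM in MuSC. H2-Ab1 was at 1.96, 5.23 and 5.21 FPKM in fresh SMMC, against 0.235 and 0.796 FPKM in MuSC. The 5 erythroid markers summed to 332 to 885 FPKM in fresh SMMC, against 6.84 to 13.2 FPKM in MuSC, with 4 of 4 tested higher. In the single-cell libraries, Cenpa was at 138 UMIs per 1000000 in dendritic cell-like cells of library 2, and at 92.9 and 64.2 in macrophage or monocyte-like cells of libraries 1 and 2. Cenpa was at 33.7 in smooth muscle-like cells of library 2, and at 24.3 and 30.9 in pericyte-like cells of libraries 1 and 2. In tenocyte-like cells it was at 5.90 and 3.66, and in muscle stem cell-like cells at 8.03 and 6.45. The part of any of these cells in the Cenpa difference was not tested.

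Exons of 11 members overlap those of a gene on the opposite strand in GENCODE M21, among them Kif20a with Cdc23, a subunit gene of the anaphase promoting complex, by 977 bases, Ube2c with Tnnc2, a muscle troponin gene, by 144 bases, Kif4 with Pdzd11 by 683 bases, Prc1 with Rccd1 by 670 bases and Ccna2 with Exosc9 by 428 bases. An exon of Top2a overlaps a snoRNA gene on the same strand by 122 bases. Values of these members are uncertain to the extent that reads of the partner were counted, because no source used here gives the strand setting.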

How the data were processed

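The bulk values are FPKM as the authors deposited them, made from Smart-seq2 libraries of polyA RNA, per the labels' protocols. The submitters' processing notes name HISAT2 2.1.0, SAMtools 1.3.1 and StringTie beside STAR 2.5.1b, Cell Ranger 2.1.0 and 2.2.0, and build mm10. No source used here says which tool made which table. The single-cell values are UMI counts per gene and cell, filtered by the authors before they were deposited.

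The members and gene lists were chosen with earlier results of these data known. Depth of the bulk libraries is unknown, and 4 columns that match no sample were not used. log2(FPKM + 1) was fitted with limma 3.58.1 in R 4.3.3, with 1 mean per group over all 11 libraries, 7 residual degrees of freedom, a variance trend and a filter of 1 FPKM in 2 libraries, which 13233 of 24411 genes passed. Calls are two-sided with Benjamini-Hochberg adjustment at 0.05, and the fit was tested on simulated data. All members may be named, with the extremes of each role and every exception, and from each list up to 3 genes with the smallest adjusted p in the main direction. List genes that went the other way were chosen after their values were seen. Libraries of one group had a Spearman correlation of 0.949 to 0.981.

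Cells needed 200 genes and at most 20% mitochondrial UMIs, which removed none. They were clustered per library with scanpy 1.11.5 without the members and lists (2000 variable genes, 30 components, 15 neighbours, Leiden resolution 1.0). A cluster was named from 3 fixed markers among its top 100 genes, a number set after the data were seen. Scrublet called 54 cells in library 1 and 4 in library 2. At 0.0635% of cells it has not worked in library 2, and doublets were kept. Intervals are exact at 95%. Gene positions and overlaps came from GENCODE M21 and promoters from RefSeq. Alternatives changed the pseudocount, filter, scaling, samples and blocking.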

Additional observations from a re-analysis of the deposited data

How the results depend on the processing

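Over the comparisons, calls of members were the same in 2394 of 2420 combinations of member and left-out library. With other settings they were the same in 1903 of 1933, and 0 reversed. The left-out libraries include those outside a comparison, whose removal leaves its differences unchanged. In fresh SMMC over MuSC, leaving out a library lost 13 calls and gained 5, and other settings lost 4 and gained 17. Leaving out 1 library gave 43 to 43 members higher in proliferating over fresh SMMC (median log2 difference 4.56 to 4.74), 43 to 43 lower in differentiating over proliferating SMMC (-2.50 to -2.07), 39 to 42 higher in differentiating over fresh SMMC (2.27 to 2.59), and 43 to 43 higher in proliferating SMMC over MuSC (4.03 to 4.41). In fresh SMMC over MuSC it gave 2 to 2 higher and 3 to 8 lower (-0.51 to -0.05). That count of lower members, 7 as reported, was 4 with no filter, 20 under quantile normalization, and 4 with only the 2 groups compared, where 20 members passed the filter. At a pseudocount of 0.1 the median was 6.03 in proliferating over fresh SMMC, 3.60 in differentiating over fresh SMMC, -0.66 in fresh SMMC over MuSC and 5.24 in proliferating SMMC over MuSC, as a smaller pseudocount shrinks low values less. Median-ratio scaling, which moved the median of all genes to -0.55 in proliferating over fresh SMMC, gave 3.94 there and 3.71 in proliferating SMMC over MuSC. Quantile normalization gave -0.78 in fresh SMMC over MuSC and 3.81 in proliferating SMMC over MuSC. The cause of the scaling shifts was not tested. With the replicate block, the counts were 43, 43, 41, 2 and 7, and 43, and the medians 4.57, -2.24, 2.39, -0.27 and 4.29. Libraries of the same number deviated together by correlations of -0.128 to 0.142, and libraries of different numbers by -0.263 to 0.288. These values do not show whether the numbers pair the libraries. No count changed with the block.

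In single cells, thinning to 1000 UMIs gave 17.8% and 17.5% of cells with any member and 0.235% and 0.0503% with at least 5 in libraries 1 and 2. Leaving out Pttg1, chosen after seeing the data, gave 25.2% and 21.3%, and at least 2 members in place of 5 gave 7.81% and 5.78%. Bulk depth is unknown, so differences among members under 1 FPKM are not resolved.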
